A study of Mus musculus with 12 samples.

Results

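The kinesin motor genes of the mouse were examined in 4 groups of cells from the brain. Members were the protein-coding genes of the deposited table whose symbol is Kif with a number and an optional letter, or Kifc with a number. They numbered 41 of 55862 genes, among 21926 protein-coding genes, and were sorted by known role into 12 genes of the spindle and cytokinesis, 17 of cargo transport, 6 of cilia and Hedgehog signalling and 6 others. RNA was sequenced from 12 samples, 3 in each group, all from mice. ASTs were primary cortical astrocytes of newborn C57BL/6 mice, expanded as a serum-fed monolayer and taken at day 0 of the incubation. A-iSCs were the same kind of astrocytes after 5 days as spheres on agarose-coated dishes, the cells that the study describes as stem cell-like. P56-NPCs were dissociated cells of the subependymal zone of adult mice (postnatal day 56). P0-NPCs were dissociated cells of the hippocampus of newborn mice (postnatal day 0). No step that sorted the dissociated cells for 1 cell type was named in the sources used here. The study's methods speak of independent experiments in general, but not for these libraries, and whether the 3 samples of a group came from separate cultures or animals is not given, so p-values measure the spread between these samples, which may be technical.

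Kinesins are ATP-driven motor proteins that walk on microtubules. The spindle members slide, crosslink or depolymerise microtubules while chromosomes separate and the cell divides, and many of their genes are read mainly by dividing cells. The transport members carry vesicles, mitochondria and protein complexes, above all along axons and dendrites, where Kif5 (kinesin-1), Kif1 (kinesin-3) and Kif3 (kinesin-2) motors serve most of the outward traffic. Another set of members works in cilia or in the Hedgehog pathway, which signals through the primary cilium.

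The values were FPKM, fragments scaled by gene length and library size, from 17077780 to 24452419 fragments per sample. A floor of 3 fragments for a gene of 1 kilobase lay between 0.103 and 0.187 FPKM, which covers counting error only. The library size behind the deposited values was 0.744 to 1.22 times the fragments counted, so that the values already carried a scaling between samples. Mitochondrial genes took 16.5 to 17.6% of the fragments in P56-NPCs and 2.94 to 7.03% in the other samples. AST replicate 2 and A-iSC replicate 3 stood farthest from the rest of their groups by the chi-square of their fragments per gene (43.5 or more and 83.3 or more, against 2.63 and 13.4 between the other pair of each group). The labels were checked with marker lists. Astrocyte markers summed to 143 to 161 FPKM in ASTs, 1211 to 2466 in A-iSCs, 2834 to 3072 in P56-NPCs and 238 to 303 in P0-NPCs. Oligodendrocyte markers summed to 10825 to 12337 FPKM in P56-NPCs and to at most 75.9 in any other sample. Neuron markers were highest in P0-NPCs, at 855 to 1033 FPKM, and next in P56-NPCs, at 227 to 282. In such bulk samples, fewer cells of a type and less RNA per cell cannot be told apart.

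The kinesin total was highest in the adult suspension, where Kif5a alone made up more than any other member. Summed over the 41 genes they reached 2408 ± 311 FPKM (SD, n = 3) in P56-NPCs, 489 ± 39.3 in P0-NPCs, 320.0 ± 32.5 in ASTs and 226 ± 40.1 in A-iSCs. Kif5a took 57.4% ± 2.10 of the sum in P56-NPCs, and without it, a reading chosen after seeing the data, the sums were 1022 ± 80.0 FPKM in P56-NPCs, 454 ± 37.4 in P0-NPCs, 319 ± 32.6 in ASTs and 223 ± 40.4 in A-iSCs. Of the sum over all 41 genes, with Kif5a, spindle members made up 26.1% ± 2.26 in ASTs, 6.01% ± 0.833 in A-iSCs, 5.30% ± 1.21 in P0-NPCs and 0.317% ± 0.0267 in P56-NPCs. Of the same sum, transport members made up 69.01% ± 2.45 in ASTs, 85.2% ± 2.17 in A-iSCs, 87.9% ± 1.71 in P0-NPCs and 98.3% ± 0.200 in P56-NPCs. The shares of A-iSCs and P0-NPCs overlapped for both roles. A total of 35 members had a mean of at least 1 FPKM in any group, and 1, Kif2b, was listed at 0 in every sample.

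Groups were compared 2 at a time with limma on log2(FPKM + 1), over genes with a mean of at least 1 FPKM in either group. A call needed an adjusted p under 0.05 (Benjamini-Hochberg, over all tested genes), and fold changes are on the log2(FPKM + 1) scale, which understates the change of low genes. Between A-iSCs and ASTs, 31 members were tested, of which 10 were higher in A-iSCs (32.3%, against 25.2% of all genes tested) and 16 were lower (51.6%, against 29.6%). In P56-NPCs against ASTs, 17 of 34 members were higher (50%, against 39.1% of all genes) and 13 were lower (38.2%, against 39.8%). In P0-NPCs against ASTs, 16 of 34 were higher (47.1%, against 38.1%) and 15 were lower (44.1%, against 40.9%). The shares of lower members in P56-NPCs and P0-NPCs lay near those of all genes.

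A-iSCs were then set beside the groups that the study took as its reference for neural progenitors. Against P56-NPCs, 7 of 31 members were higher in A-iSCs (22.6%, against 30.1% of all genes) and 18 were lower (58.1%, against 30.9%). Against P0-NPCs, 4 of 33 were higher (12.1%, against 31.5%) and 18 were lower (54.5%, against 33.6%). Between the reference groups, 17 of 34 members were higher in P0-NPCs than in P56-NPCs (50%, against 39%) and 16 were lower (47.1%, against 39.7%). With scaling by library size alone, the 7 higher and 18 lower members of A-iSCs against P56-NPCs became 12 and 15. That scaling moved the median log2 fold change of all tested genes from 0.03 to 0.49 there, from -0.01 to 0.53 in P0-NPCs against P56-NPCs, from -0.03 to -0.34 in P56-NPCs against ASTs, from -0.07 to 0.21 in P0-NPCs against ASTs and from -0.06 to 0.13 in A-iSCs against ASTs. It also moved the share of higher genes among all calls from 49.4 to 74.5%, from 49.6 to 73.3%, from 49.6 to 37.7%, from 48.2 to 59.4% and from 46.0 to 60.4%, in the same order. Comparisons with ASTs share the 3 AST samples, and those with A-iSCs the 3 A-iSC samples.

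The kinesins of the spindle and cytokinesis were lower in A-iSCs than in the astrocytes from which such cells are grown. All 10 tested members fell, against 29.6% of all genes tested, and no member rose. Their median log2 fold change was -1.96, against -0.06 over all genes tested. Since a gene can pass the filter through the group where it is high, the list was also read without the filter, where 11 of all 12 members were lower (14.1% of all genes were, without the filter), and over the 7 members that reached 1 FPKM in both groups, where 7 were lower. Their summed level was 81.01 to 84.6 FPKM in ASTs, 12.96 to 13.8 in A-iSCs, 6.50 to 9.55 in P56-NPCs and 21.4 to 29.5 in P0-NPCs, so that the 4 groups did not overlap and ASTs were the highest. The same order was seen for the 6 markers of cycling cells, which summed to 114 to 116 FPKM in ASTs, 17.98 to 21.6 in A-iSCs, 6.98 to 11.5 in P56-NPCs and 44.3 to 56.96 in P0-NPCs. All 6 of these markers were lower in A-iSCs than in ASTs (29.6% of all genes tested), and none was at 0 in any group. Their part in the kinesin result was not tested.

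Kif20a (MKLP2), which brings the chromosomal passenger complex to the midzone of the dividing cell, was at 16.02, 9.57 and 15.03 FPKM in ASTs, 1.498, 1.503 and 1.87 in A-iSCs, 0.784, 1.02 and 0.770 in P56-NPCs and 2.92, 1.89 and 2.59 in P0-NPCs. Its lowest AST sample stood above every sample of the other groups, and the fall in A-iSCs was 8.35-fold on the mean (log2 fold change -2.44, SE 0.19, adjusted p = 5.14e-05). Of its exon bases, 29.3% overlap the gene Cdc23, and without strand information such fragments cannot be told apart. Kifc1, a minus-end motor that focuses spindle poles, was at 18.4, 19.5 and 16.7 FPKM in ASTs, 2.78, 2.93 and 2.74 in A-iSCs, 1.21, 1.82 and 1.39 in P56-NPCs and 6.90, 4.45 and 4.68 in P0-NPCs. It fell by 2.33 on the log2 scale in A-iSCs (adjusted p = 6.42e-06), but 39.7% of its 50-base runs also occur in the near copy Kifc5b, so its level is uncertain. Kif2c (MCAK), which depolymerises microtubules at kinetochores, was at 9.34, 9.55 and 9.23 FPKM in ASTs, 1.23, 1.17 and 1.12 in A-iSCs, 0.700, 0.843 and 0.598 in P56-NPCs and 2.14, 1.83 and 2.19 in P0-NPCs. Its AST samples lay within 9.23 to 9.55 FPKM and its A-iSC samples within 1.12 to 1.23 (log2 fold change -2.26, SE 0.10, adjusted p = 5.56e-06).

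**Figure D1:**
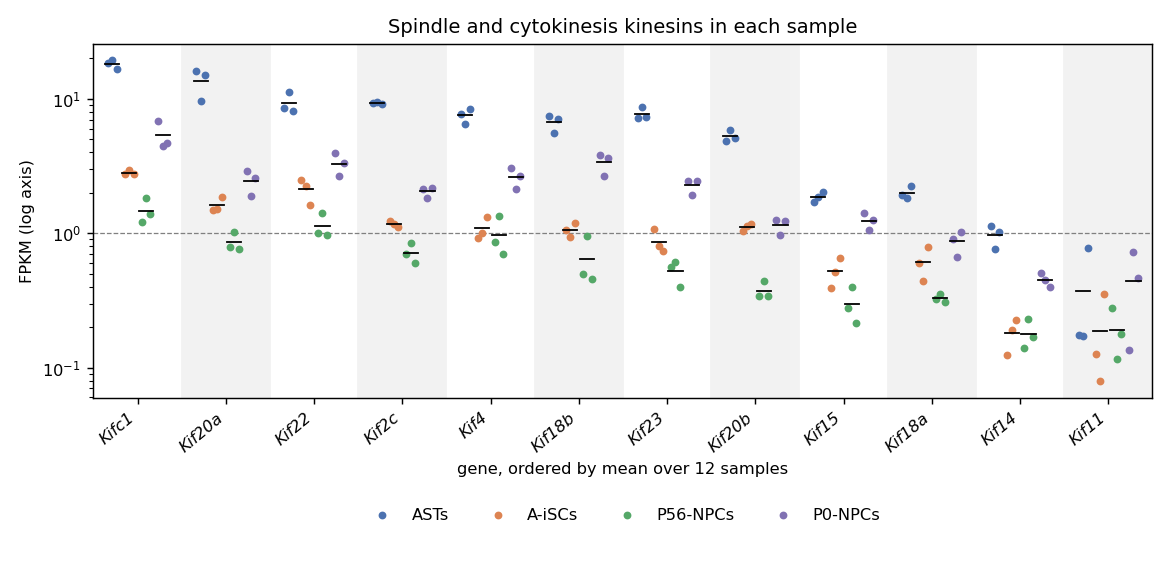
FPKM of the 12 spindle and cytokinesis kinesin genes in each sample, on a log axis. Each point is 1 sample, black bars are group means (n = 3) and the dashed line marks 1 FPKM, and the AST points lie above all others for every gene but Kif11, whose groups overlap.

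Kif23 (MKLP1), the motor of the centralspindlin complex that starts the cleavage furrow, was at 7.23, 8.66 and 7.31 FPKM in ASTs, 1.07, 0.798 and 0.736 in A-iSCs, 0.561, 0.615 and 0.400 in P56-NPCs and 2.47, 1.91 and 2.46 in P0-NPCs. The decrease from ASTs to A-iSCs was 8.91-fold on the mean (log2 fold change -2.23, SE 0.12, adjusted p = 1.22e-05). Kif4, a chromosome-arm motor that also limits the length of midzone microtubules, was at 7.74, 6.47 and 8.37 FPKM in ASTs, 0.927, 0.999 and 1.33 in A-iSCs, 0.857, 1.33 and 0.705 in P56-NPCs and 3.04, 2.12 and 2.68 in P0-NPCs (log2 fold change -2.03, SE 0.13, adjusted p = 2.45e-05 in A-iSCs against ASTs), and 15.1% of its exon bases overlap Pdzd11. Kif18b, which controls astral microtubules, was at 7.45, 5.55 and 7.05 FPKM in ASTs, 1.06, 0.930 and 1.20 in A-iSCs, 0.500, 0.959 and 0.459 in P56-NPCs and 3.84, 2.65 and 3.65 in P0-NPCs. Kif22, a motor that pushes chromosome arms away from the poles, was at 8.60, 11.2 and 8.15 FPKM in ASTs, 2.51, 2.26 and 1.63 in A-iSCs, 1.01, 1.41 and 0.966 in P56-NPCs and 3.94, 2.65 and 3.32 in P0-NPCs. The AST samples of Kif18b and Kif22 lay above every sample of the other groups, and both were lower in A-iSCs (log2 fold changes -1.89 and -1.72). The remaining tested members, Kif20b, Kif15 and Kif18a, were lower in A-iSCs by log2 fold changes of -1.57, -0.91 and -0.90.

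**Figure D2:**
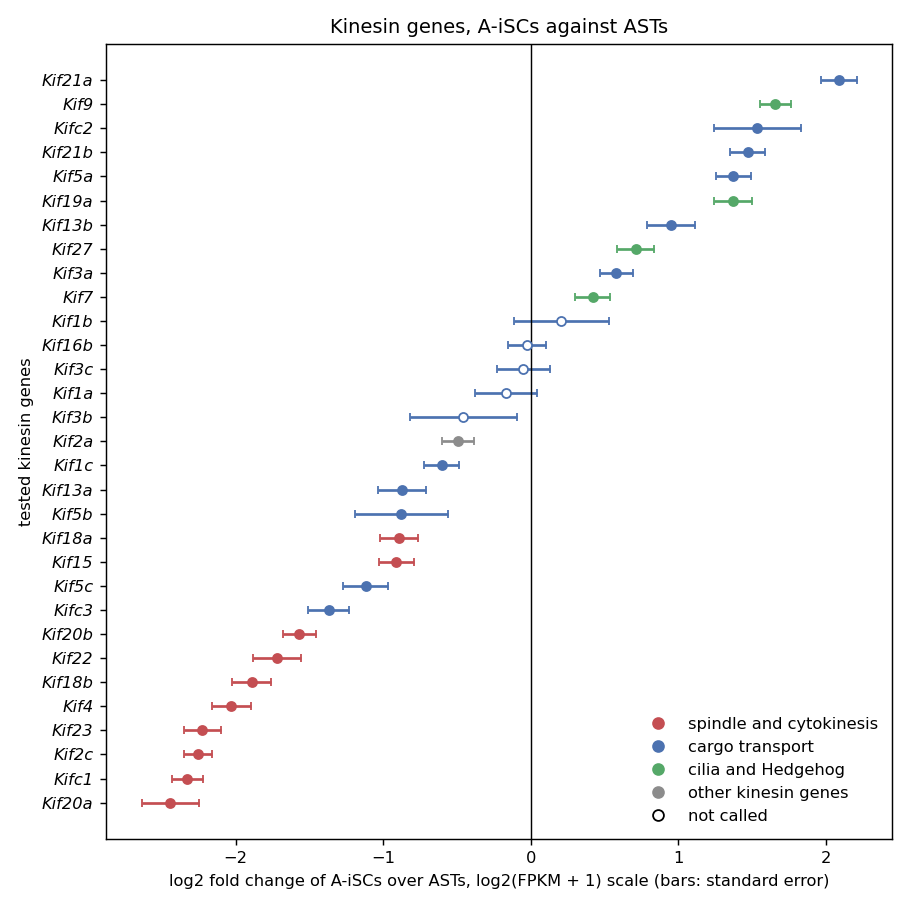
Log2 fold change of A-iSCs over ASTs, on the log2(FPKM + 1) scale, for the 31 tested kinesin genes, with standard errors as bars and open circles where the gene was not called. The 10 spindle genes lie between -2.44 and -0.90, the 4 cilia and Hedgehog genes between 0.42 and 1.66, and the 16 transport genes on both sides of 0.

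Kif14 and Kif11 did not pass the filter. Kif14, which acts in the last step of cytokinesis, was at 1.12, 0.762 and 1.03 FPKM in ASTs, 0.125, 0.191 and 0.227 in A-iSCs, 0.139, 0.229 and 0.170 in P56-NPCs and 0.502, 0.448 and 0.396 in P0-NPCs, so that its AST samples also lay above those of the other groups. Kif11 (Eg5), the motor that pushes the spindle poles apart and is needed for a bipolar spindle, was at 0.176, 0.172 and 0.772 FPKM in ASTs, 0.126, 0.0789 and 0.355 in A-iSCs, 0.278, 0.117 and 0.179 in P56-NPCs and 0.135, 0.727 and 0.467 in P0-NPCs. These values rested on 22, 26 and 107 fragments in ASTs and 19, 14 and 71 in A-iSCs, and all 4 groups overlapped. Kif11 thus lay below 1 FPKM even in ASTs, where Kif15, its known partner in the same task, was at 1.72, 1.85 and 2.02 FPKM. Of the 50-base runs of Kif11, 2.15% occur in other genes and none of its exon bases overlap another gene.

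The level of the spindle list in A-iSCs lay between those of the reference groups. Against P56-NPCs, 5 of all 12 members were higher in A-iSCs without the filter (15% of all genes) and 0 were lower. With the filter, 7 were tested, of which only Kifc1 and Kif22 reached 1 FPKM in both groups. Of these 7, 5 were higher (30.1% of all genes), with log2 fold changes of 0.63 for Kifc1, 0.62 for Kif20b, 0.55 for Kif22, 0.50 for Kif20a and 0.34 for Kif2c. The number fell from 5 to 3 without A-iSC replicate 2, P56-NPC replicate 1 or P56-NPC replicate 3, each of which ended the calls of Kif22 and Kif2c, and the call of Kif2c was also lost without A-iSC replicate 1 (adjusted p = 0.0738). Against P0-NPCs, 7 of all 12 were lower without the filter (20.2% of all genes) and 0 were higher, and of the 7 members at 1 FPKM in both groups 6 were lower. With the filter 8 of 9 were lower (33.6% of all genes), led by Kif18b (log2 fold change -1.08, SE 0.14, adjusted p = 2.93e-04), while Kif20b was at 1.04, 1.14 and 1.16 FPKM in A-iSCs and 1.25, 0.973 and 1.23 in P0-NPCs. The calls of Kif20a and Kif22 there (adjusted p = 0.0414 and 0.0369) were lost without a filter and without some samples, P0-NPC replicate 1 among them. Between the reference groups, 9 of 9 tested members were higher in P0-NPCs (39% of all genes), led by Kif18b (log2 fold change 1.42, SE 0.16, adjusted p = 8.00e-05) and Kifc1 (1.34). Without the filter, 11 of all 12 were higher in P0-NPCs (22.9% of all genes). Against ASTs, the 10 tested members were lower in P56-NPCs (39.8% of all genes), with a median of -2.25, and in P0-NPCs (40.9% of all genes), with a median of -1.34. Without the filter, 11 of all 12 were lower in P56-NPCs (22% of all genes) and 11 in P0-NPCs (21.1%).

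Genes of proteins that work beside these motors on the spindle were lower in A-iSCs as well. Of 16 listed mitotic partners, 15 were tested in A-iSCs against ASTs, of which 15 were lower and 0 higher (median log2 fold change -2.27), against 29.6% lower and 25.2% higher of all genes tested. Plk1, a kinase of mitosis and cytokinesis, was at 33.2, 37.7 and 30.1 FPKM in ASTs, 4.24, 3.73 and 2.80 in A-iSCs, 1.52, 1.95 and 2.07 in P56-NPCs and 5.53, 4.69 and 4.75 in P0-NPCs (log2 fold change -2.92, SE 0.15, adjusted p = 1.04e-05). Tpx2, a spindle assembly factor, Hmmr, a spindle pole protein, and Cenpe, itself a kinesin of the kinetochore whose symbol lies outside the rule, fell by 2.55, 2.55 and 2.27 on the log2 scale. In P56-NPCs against ASTs, 14 of 16 partners were lower and 2 were higher, against 39.8% and 39.1% of all genes. Those 2 were Cit, a midbody kinase (1.48), and Anln, an actin-binding protein of the cleavage furrow that is also known from myelinating cells (0.94). Anln was at 14.2, 10.8 and 15.3 FPKM in ASTs, 0.805, 0.715 and 1.07 in A-iSCs, 27.9, 24.1 and 27.4 in P56-NPCs and 1.73, 1.12 and 1.47 in P0-NPCs, so that the suspension with the highest oligodendrocyte markers also held the most Anln, and the part of those markers was not tested.

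The sequences before the start sites were examined because promoters of late cell cycle genes are known to share a CCAAT box and the element TTTGAA, the cell cycle homology region. Windows of 300 bases, 250 before and 50 after the start site, came from the RefSeq promoter table on GRCm38.p6, in which 32 of the 41 members were matched, the others being Kif5a, Kif5b, Kif20a, Kif13b, Kif21b, Kifc2, Kifc3, Kif19a and Kif28. Both motifs were searched on both strands (as CCAAT or ATTGG, and as TTTGAA or TTCAAA), each on its own, so that matches of the motifs may share bases. TTTGAA occurred in 10 of 11 spindle windows (90.9%), in 1 of 11 transport windows (9.09%) and in 20.2% of the windows of all 27025 genes (17.7% for the 16615 protein-coding genes). CCAAT occurred in 7 of 11 spindle windows (63.6%), 3 of 11 transport windows (27.3%) and 41.1% of all windows (42.1% for protein-coding genes). Both motifs occurred in 7 spindle windows, 0 transport windows and 7.97% of all (7.14% for protein-coding genes). Kif18a was the spindle member with neither. A match is a description of the letters and not a measured site. The RefSeq start site is not always the 5′ end of the gene as the deposited table gives it: it lies 328 bases inside the gene for Kif4, 1505 for Kif14, 3867 for Kif2c and 19471 for the window of Kif1a that holds the 1 transport match. Over windows whose start site is within 100 bases of that end, a distance chosen after seeing the data, TTTGAA occurred in 7 of 8 spindle members (87.5%), 0 of 9 transport members and 14.7% of 12065 protein-coding genes.

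The TTTGAA match nearest to the start site is shown for the 8 spindle members in which it lay close to that site. It is printed with 10 bases on either side, in the direction of the gene and with the motif in capitals. The 8 were picked by the place of the match, so its likeness among them is not a result. Coordinates are on GRCm38.p6, with the strand of the gene.
Kif11 (chr19:37376353-37376378, plus strand): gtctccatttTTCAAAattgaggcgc
Kif15 (chr9:122951052-122951077, plus strand): gggcgccaaaTTCAAAtctgcggcca
Kif22 (chr7:127042422-127042447, minus strand): gccccggtaaTTCAAAagagagaagc
Kifc1 (chr17:33890617-33890642, minus strand): gaggttgaaaTTCAAAagtggcgggt
Kif23 (chr9:61946782-61946807, minus strand): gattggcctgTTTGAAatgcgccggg
Kif18b (chr11:102925106-102925131, minus strand): gaccggctagTTTGAAcgcgccgcgc
Kif20b (chr19:34922355-34922380, plus strand): gccgccattgTTTGAATTTGAAaacc
Kif4 (chrX:100626074-100626099, plus strand): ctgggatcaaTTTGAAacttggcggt
Counted from the start site, the first base of the match lay at -19 in Kif11 and Kif15, -17 in Kif22 and 2 in Kifc1. It lay at 3 in Kif23, 4 in Kif18b, 8 in Kif20b and 20 in Kif4, with a further match in direct sequence in Kif20b. In Kif2c and Kif14 it lay at -103 and -228, and they are not shown because it was not close to the start site. Their start sites lie 3867 and 1505 bases inside the gene, and that of Kif4, which is shown, 328. A match within 25 bases of the start site, a distance chosen after these positions were seen, was present in 8 of 11 spindle windows (72.7%), 0 of 11 transport windows and 3.1% of all windows (2.45% for protein-coding genes). Of the windows at the 5′ end of the gene it was present in 7 of 8 spindle members, 0 of 9 transport members and 2% of protein-coding genes.

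The 120 bases before the start site are shown for a pair of spindle members with both motifs in the window and a pair of transport members with neither, to set the promoters side by side. They lie at chr19:37376262-37376381 (plus strand), chr11:102925125-102925244 (minus strand), chr11:70700428-70700547 (plus strand) and chr15:91049952-91050071 (minus strand) on GRCm38, each before the first exon of its gene and clear of annotated exons. Capitals mark the motifs on either strand.
Kif11: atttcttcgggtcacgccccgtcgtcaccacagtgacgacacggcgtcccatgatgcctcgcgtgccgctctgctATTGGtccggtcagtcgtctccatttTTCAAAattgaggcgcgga
Kif18b: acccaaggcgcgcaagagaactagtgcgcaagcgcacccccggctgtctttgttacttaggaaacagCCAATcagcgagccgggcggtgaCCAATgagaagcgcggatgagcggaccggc
Kif1c: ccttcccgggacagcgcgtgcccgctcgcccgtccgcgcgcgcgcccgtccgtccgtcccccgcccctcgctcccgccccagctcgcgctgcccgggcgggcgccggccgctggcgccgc
Kif21a: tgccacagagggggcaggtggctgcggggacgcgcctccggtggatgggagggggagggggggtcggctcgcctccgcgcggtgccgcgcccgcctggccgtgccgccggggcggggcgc
In Kif11 the inverted CCAAT box begins at -45 and TTCAAA at -19, and Kif18b holds a pair of CCAAT boxes here, with its TTTGAA past the start site. Kif11, whose FPKM did not follow the spindle list, held the same pair of motifs as members that did.

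Transport kinesins had no single direction in A-iSCs, and most of them were higher in P56-NPCs than in ASTs. In A-iSCs against ASTs, 6 of 16 tested members were higher (37.5%, against 25.2% of all genes), 5 were lower, near the 29.6% of all genes, and 5 were not called, with a median log2 fold change of -0.04 against -0.06 over all genes. In P56-NPCs against ASTs, 12 of 17 were higher and 1 was lower (39.1% and 39.8% of all genes), with a median of 1.75 against -0.03, and in P0-NPCs against ASTs 9 of 16 were higher and 5 were lower (38.1% and 40.9% of all genes), with a median of 0.85 against -0.07. The 1 lower member in P56-NPCs was Kif3b (log2 fold change -0.70, adjusted p = 0.0359), and that call was lost without the filter, without AST replicate 1 or 3 and without each P56-NPC replicate in turn. Against A-iSCs, 13 of 17 were higher in P56-NPCs (30.9% of all genes) and 1 lower (30.1%). In P0-NPCs 6 of 16 were higher than in A-iSCs (37.5%, near the 33.6% of all genes) and 3 lower (31.5% of all genes).

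The Kif5 genes encode the heavy chain of conventional kinesin, of which Kif5a and Kif5c are known as neuronal forms and Kif5b as the form of most tissues. Kif5a (GRCm38 chr10:127225696-127263348) was at 0.700, 0.896 and 0.824 FPKM in ASTs, 3.54, 4.21 and 3.31 in A-iSCs, 1328, 1641 and 1189 in P56-NPCs and 32.9, 37.3 and 35.9 in P0-NPCs. It ranked 20 of 21926 protein-coding genes in P56-NPCs by mean FPKM, 1050 in P0-NPCs, 8305 in A-iSCs and 11364 in ASTs. The 4 groups did not overlap, with P56-NPCs far above the rest. Kif5a exceeded its AST level in A-iSCs by 4.57-fold on the mean (log2 fold change 1.37, SE 0.12, adjusted p = 8.25e-05), while P56-NPCs exceeded ASTs by a log2 fold change of 9.57 (SE 0.13), P0-NPCs by 4.33, and A-iSCs lay below P56-NPCs by 8.20 and below P0-NPCs by 2.96.

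Kif5c was at 14.9, 11.97 and 15.1 FPKM in ASTs, 5.43, 5.14 and 7.19 in A-iSCs, 228, 249 and 208 in P56-NPCs and 89.8, 99.3 and 95.7 in P0-NPCs. Unlike Kif5a it was lower in A-iSCs than in ASTs (log2 fold change -1.12, SE 0.15, adjusted p = 7.46e-04), and it was higher than ASTs in P56-NPCs (3.94) and P0-NPCs (2.68). Kif5b was at 44.4, 31.9 and 45.6 FPKM in ASTs, 18.04, 14.9 and 35.98 in A-iSCs, 138, 144 and 131 in P56-NPCs and 20.6, 23.3 and 22.3 in P0-NPCs. Its A-iSC samples overlapped those of ASTs through A-iSC replicate 3 (log2 fold change -0.88, SE 0.32, adjusted p = 0.0481). Without that replicate the difference was -1.24 (adjusted p = 0.00151), and without each of A-iSC replicates 1 and 2 or each AST replicate it was -0.63 to -1.04 and the call was lost (adjusted p = 0.0559 to 0.150). The call was also lost with library size scaling (-0.67, adjusted p = 0.115) and without the filter (adjusted p = 0.105). P56-NPCs held more Kif5b than ASTs (1.75) and P0-NPCs less (-0.84).

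**Figure D3:**
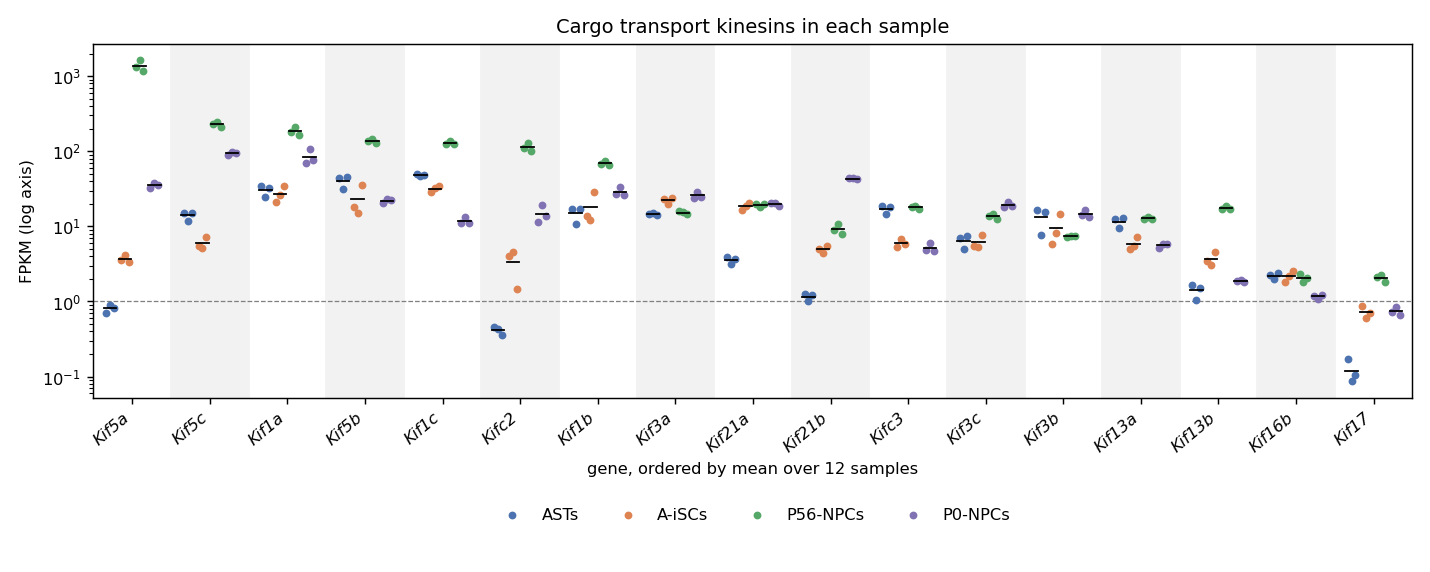
FPKM of the 17 cargo transport kinesin genes in each sample, on a log axis, with 1 point per sample, black bars for group means (n = 3) and a dashed line at 1 FPKM. Kif5a spans 0.700 FPKM in ASTs to 1641 in P56-NPCs, Kif21b is highest in P0-NPCs, and Kif1c, Kif5b and Kif13b are highest in P56-NPCs.

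The make-up of the Kif5 heavy chains differed in each group. Kif5b was the main form in ASTs, at 73.1% ± 1.61 of the summed Kif5 FPKM (SD, n = 3), and in A-iSCs, at 68.5% ± 8.13. Kif5a took 1.502% ± 0.440 in ASTs and 12.5% ± 5.14 in A-iSCs, where the samples were at 13.1, 17.4 and 7.13%. In P56-NPCs Kif5a was the main form (78.97% ± 1.495) and in P0-NPCs Kif5c was (62.3% ± 0.304). In every A-iSC sample the Kif5a share was above that of every AST sample. With 3 samples against 3, an exact permutation test of a share cannot go under 0.1, so none was made.

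**Figure D4:**
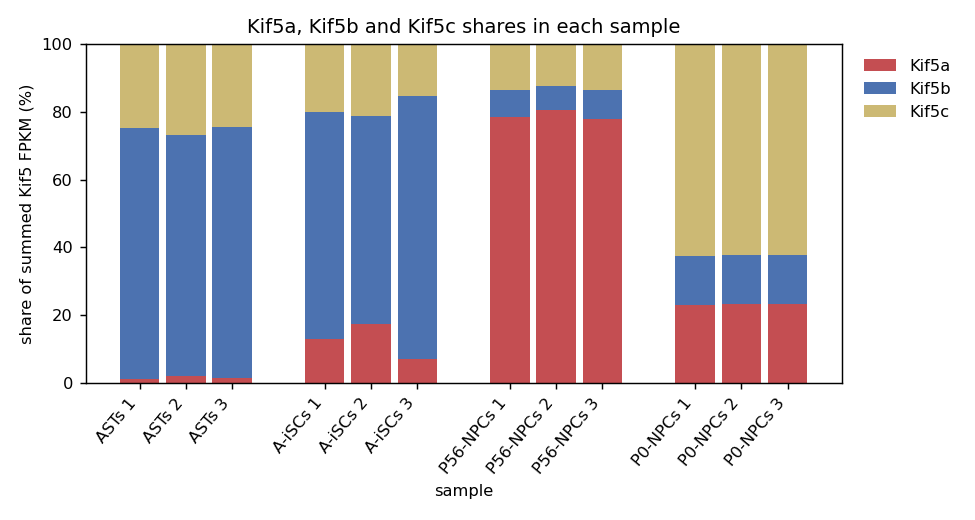
Share of Kif5a, Kif5b and Kif5c in their summed FPKM, in percent, as 1 stacked bar per sample. Kif5b leads in ASTs and A-iSCs, Kif5a in P56-NPCs (77.8 to 80.7%) and Kif5c in P0-NPCs (62.1 to 62.7%).

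The Kif1 genes encode kinesin-3 motors, with Kif1a carrying precursors of synaptic vesicles in axons. Kif1a was at 34.2, 24.5 and 32.7 FPKM in ASTs, 21.1, 25.8 and 35.01 in A-iSCs, 180.1, 213 and 166 in P56-NPCs and 69.9, 107 and 76.8 in P0-NPCs, so that ASTs and A-iSCs overlapped and both reference groups were higher. Kif1c, a broadly used vesicle motor, was at 49.9, 46.98 and 48.99 FPKM in ASTs, 28.4, 32.6 and 34.2 in A-iSCs, 124, 136 and 124 in P56-NPCs and 11.02, 13.4 and 11.2 in P0-NPCs. It separated all 4 groups and was lower in A-iSCs than in ASTs (log2 fold change -0.60, SE 0.12, adjusted p = 0.00394), higher in P56-NPCs (1.38) and lower in P0-NPCs (-1.95). Of the summed Kif1 FPKM, Kif1c took 52.03% ± 4.34 in ASTs, 41.9% ± 6.11 in A-iSCs, 33.5% ± 1.41 in P56-NPCs and 9.57% ± 0.791 in P0-NPCs, and Kif1a took 67.1% ± 2.20 in P0-NPCs. Kif1b, which carries mitochondria and synaptic vesicle precursors, was not called between A-iSCs and ASTs, where A-iSC replicate 3 stood apart at 28.7 FPKM from 13.9 and 12.3 in the other A-iSC samples.

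Kif21a and Kif21b are kinesin-4 motors that restrain microtubule growth in neurons. Kif21a was at 3.97, 3.15 and 3.65 FPKM in ASTs, 16.8, 18.5 and 20.2 in A-iSCs, 19.9, 18.3 and 19.96 in P56-NPCs and 20.2, 20.6 and 18.9 in P0-NPCs. It rose 5.15-fold on the mean in A-iSCs, with the largest positive fold change of the 31 tested kinesins on the log2(FPKM + 1) scale (log2 fold change 2.09, SE 0.12, adjusted p = 1.50e-05). A-iSCs overlapped with both reference groups for Kif21a, and the differences were -0.07 (SE 0.10) to P56-NPCs and -0.10 (SE 0.11) to P0-NPCs on the log2 scale. With scaling by library size the first became 0.46 (adjusted p = 0.00774). Kif21b was at 1.24, 1.01 and 1.24 FPKM in ASTs, 5.01, 4.44 and 5.56 in A-iSCs, 9.01, 10.7 and 7.89 in P56-NPCs and 43.8, 43.6 and 42.8 in P0-NPCs. It too was higher in A-iSCs than in ASTs (log2 fold change 1.47, SE 0.12, adjusted p = 5.66e-05), but P0-NPCs exceeded every other group, by 4.36 over ASTs and 2.13 over P56-NPCs. Kif21b took 68.6% ± 0.754 of the summed Kif21 FPKM in P0-NPCs and 21.3% ± 1.86 in A-iSCs.

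Kif13a and Kif13b are kinesin-3 motors of endosomes and membrane proteins, and they moved in opposite directions in A-iSCs. Kif13a was at 12.4, 9.57 and 12.9 FPKM in ASTs, 5.04, 5.45 and 7.15 in A-iSCs, 12.7, 13.2 and 12.6 in P56-NPCs and 5.23, 5.77 and 5.85 in P0-NPCs, with A-iSCs below ASTs (log2 fold change -0.88, SE 0.16, adjusted p = 0.00323). Kif13b was at 1.68, 1.06 and 1.49 FPKM in ASTs, 3.43, 3.05 and 4.54 in A-iSCs, 17.1, 18.7 and 16.8 in P56-NPCs and 1.85, 1.95 and 1.83 in P0-NPCs, with A-iSCs above ASTs (log2 fold change 0.95, SE 0.16, adjusted p = 0.00213) and P56-NPCs highest of all (2.95 over ASTs). The share of Kif13b in the summed FPKM of the pair was 10.8% ± 1.03 in ASTs, 38.4% ± 2.36 in A-iSCs, 25.1% ± 1.20 in P0-NPCs and 57.7% ± 0.758 in P56-NPCs.

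The minus-end motors Kifc2 and Kifc3 also diverged. Kifc2, known from axons and dendrites, was at 0.455, 0.426 and 0.356 FPKM in ASTs, 4.04, 4.54 and 1.46 in A-iSCs, 112, 128 and 102 in P56-NPCs and 11.5, 19.3 and 13.6 in P0-NPCs. All 3 A-iSC samples lay above ASTs and below both reference groups, though A-iSC replicate 3 was well below the other A-iSC samples (log2 fold change 1.54, SE 0.29, adjusted p = 0.00361). Kifc3, which acts at cell junctions and the Golgi, was at 18.4, 14.6 and 18.1 FPKM in ASTs, 5.27, 6.81 and 5.86 in A-iSCs, 18.3, 18.9 and 17.2 in P56-NPCs and 4.78, 5.92 and 4.76 in P0-NPCs, so that A-iSCs and P0-NPCs overlapped at a low level and ASTs and P56-NPCs at a high one (log2 fold change -1.37, SE 0.14, adjusted p = 1.66e-04 in A-iSCs against ASTs).

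The kinesin-2 motor of cilia and vesicles is built from Kif3a with Kif3b or Kif3c. Kif3a was higher in A-iSCs than in ASTs (log2 fold change 0.58, SE 0.11, adjusted p = 0.00402), whereas Kif3b and Kif3c were not called (log2 fold changes -0.46, SE 0.36, and -0.05, SE 0.18). Kif3c was higher than ASTs in both reference groups (0.99 and 1.47), with 40.7% of its exon bases shared with overlapping genes. Kif16b, an endosome motor, stayed within 1.09 to 2.51 FPKM in all samples. Kif17, a motor of dendrites, was below 1 FPKM in every sample except those of P56-NPCs, at 2.09, 2.27 and 1.82 FPKM.

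Adaptors link these motors to their cargo, and 16 of them were read from a list. In A-iSCs against ASTs, 6 were higher (37.5%), 2 were lower (12.5%) and 8 were not called, against 25.2% higher and 29.6% lower of all genes tested. The higher ones were Hap1 (1.31), Fez1 (1.14), Trak1 (0.81), Klc4 (0.74), Mapk8ip3 (0.53) and Mapk8ip1 (0.52), on the log2 scale. Trak2, which with Trak1 couples Kif5 to mitochondria, was lower (log2 fold change -0.84, SE 0.14, adjusted p = 0.00162), as was the light chain Klc1 (-0.32, adjusted p = 0.0358). The count of lower adaptors fell from 2 to 1 with scaling by library size and without any 1 AST sample or A-iSC replicate 1 or 2. Over all refits without 1 sample, 4 to 7 adaptors were higher and 1 to 3 lower, and 5 were higher without the filter. In P56-NPCs against ASTs, 13 were higher and 1 was lower (39.1% and 39.8% of all genes), and in P0-NPCs 9 were higher and 3 lower (38.1% and 40.9% of all genes). Trak2 was at 10.9, 8.91 and 11.1 FPKM in ASTs, 4.95, 4.78 and 6.15 in A-iSCs, 157, 168 and 156 in P56-NPCs and 8.57, 9.53 and 9.15 in P0-NPCs, so that P56-NPCs stood far above the other 3 groups. Klc1, the light chain of conventional kinesin, was at 26.8, 29.4 and 25.6 FPKM in ASTs, 21.03, 22.1 and 21.6 in A-iSCs, 182, 177 and 190.4 in P56-NPCs and 53.1, 59.8 and 63.3 in P0-NPCs, which set P56-NPCs above P0-NPCs and both above the astrocyte groups.

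Of the 17 transport members, 12 were lower in P0-NPCs than in P56-NPCs (39.7% of all genes) and 4 were higher (39%). Kif5a, Kif5c, Kif1a and Kifc2, all known from neurons, were among the lower ones (log2 fold changes of P0-NPCs over P56-NPCs -5.24, -1.25, -1.15 and -2.89), while Kif21b and Kif3c were higher in P0-NPCs (2.13 and 0.49). Kif1c, Kif5b and Kif13b, not named above as neuronal forms, were lower too, each by more than Kif5c or Kif1a. Over refits without 1 sample, their log2 fold changes were -3.41 to -3.28, -2.625 to -2.54 and -2.71 to -2.64. The summed neuron markers were higher in P0-NPCs. Within that list, 4 of 8 neuron markers were higher in P0-NPCs (39% of all genes) and 3 were lower (39.7% of all genes). The higher ones included Dcx, Stmn2 and Rbfox3, with means of 88.1, 109 and 17.6 FPKM in P0-NPCs against 3.34, 18.2 and 8.29 in P56-NPCs. Among the lower ones were Snap25 and Map2, with means of 14.9 and 41.7 FPKM in P0-NPCs against 33.7 and 71.1 in P56-NPCs. Nefl, a neurofilament of mature axons, was lower too, at 35.6, 40.6 and 28.3 FPKM in P56-NPCs and 1.71, 3.20 and 2.32 in P0-NPCs. The oligodendrocyte markers were all higher in P56-NPCs (6 of 6, against 39.7% of all genes), at 10825 to 12337 FPKM against 15.2 to 18.2. The share of mitochondrial fragments was higher too. In A-iSCs, Kif5a, Kif21a, Kif21b and Kifc2 were above ASTs, Kif5c was below (-1.12) and Kif1a was not called (-0.17). The neuron markers there summed to 50.7 to 66.5 FPKM against 88.8 to 125 in ASTs, with Dcx higher, Stmn2 lower and 2 others not called among the 4 tested. The part of these cell types in the kinesin levels was not tested.

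Several kinesins of cilia and Hedgehog signalling were higher in A-iSCs. Read without the filter, since most reached 1 FPKM only outside ASTs, 4 of all 6 were higher than in ASTs (14.2% of all genes) and 0 lower, with a median log2 fold change of 0.57 over the 6 against 0.01 over all genes. The higher ones were Kif6, Kif9, Kif19a and Kif27, while Kif7 and Kif24 were not called. With the filter, 4 were tested and 4 were higher, Kif7 among them (25.2% of all genes). Kif7 was the 1 member with at least 1 FPKM in both groups. The list summed to 3.59 to 4.41 FPKM in ASTs, 10.9 to 11.98 in A-iSCs, 21.3 to 24.6 in P56-NPCs and 10.5 to 11.8 in P0-NPCs, so that A-iSCs and P0-NPCs overlapped. Without the filter, 4 of all 6 were higher in P56-NPCs than in ASTs (26.2% of all genes) and 0 lower, and 5 of all 6 were higher in P0-NPCs (26.3%). Markers of ependymal cells, which bear motile cilia, summed to 51.4 to 66.4 FPKM in ASTs, 87.1 to 92.5 in A-iSCs, 281 to 388 in P56-NPCs and 98.1 to 126 in P0-NPCs. Of these 6 markers, 4 had higher levels in A-iSCs than in ASTs (25.2% of all genes tested) and 2, Foxj1 and Rsph1, were not called. Tmem212 was at 0 in AST replicates 1 and 2, and the part of such cells in the kinesin levels was not tested.

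Kif9, which controls the beat of motile cilia, was at 0.708, 0.803 and 0.626 FPKM in ASTs, 4.36, 4.57 and 4.26 in A-iSCs, 8.002, 6.25 and 7.75 in P56-NPCs and 2.97, 2.38 and 2.88 in P0-NPCs. It was 6.17-fold higher in A-iSCs than in ASTs (log2 fold change 1.66, SE 0.10, adjusted p = 1.91e-05) and lower than in P56-NPCs (-0.62), a call lost with scaling by library size (-0.15, adjusted p = 0.300). Kif19a, which sets the length of motile cilia by trimming microtubule ends, was at 0.0293, 0.0727 and 0.0529 FPKM in ASTs, 1.89, 1.97 and 1.34 in A-iSCs, 9.02, 8.06 and 8.39 in P56-NPCs and 1.58, 1.80 and 1.21 in P0-NPCs. Its AST values rested on 2, 6 and 4 fragments, so the log2 fold change of A-iSCs over ASTs (1.37, adjusted p = 1.32e-04) depends on the pseudocount and gives no bound. Kif27, a relative of Kif7 known from motile cilia, was at 0.663, 0.426 and 0.444 FPKM in ASTs, 1.43, 1.29 and 1.71 in A-iSCs, 2.81, 2.77 and 2.72 in P56-NPCs and 2.09, 1.72 and 1.80 in P0-NPCs and was higher in A-iSCs (log2 fold change 0.71, SE 0.13, adjusted p = 0.00250).

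**Figure D5:**
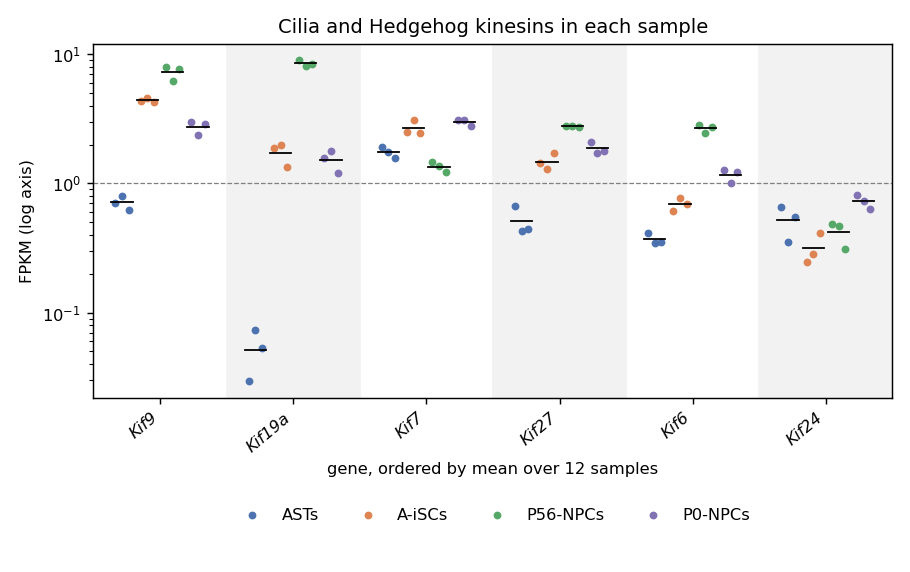
FPKM of the 6 cilia and Hedgehog kinesin genes in each sample, on a log axis, with 1 point per sample, black bars for group means (n = 3) and a dashed line at 1 FPKM. Kif9, Kif19a, Kif27 and Kif6 are lowest in ASTs and highest in P56-NPCs, whereas Kif7 is lowest in P56-NPCs.

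Kif7, which organises the ciliary tip for Hedgehog signalling, was at 1.93, 1.77 and 1.56 FPKM in ASTs, 2.52, 3.08 and 2.44 in A-iSCs, 1.46, 1.36 and 1.23 in P56-NPCs and 3.09, 3.12 and 2.78 in P0-NPCs. Its A-iSC samples lay above ASTs (log2 fold change 0.42, SE 0.12, adjusted p = 0.0207), a call that was lost without the filter (adjusted p = 0.0519), without AST replicate 3 (0.0893) and without A-iSC replicate 2 (0.0743). Kif7 was the 1 member of this list that was lower in P56-NPCs than in ASTs (-0.23, adjusted p = 0.0434), and this call was lost without the filter (0.0925), with limma-voom (0.0506) and without each AST or P56-NPC replicate in turn, apart from AST replicate 3. Of its exon bases, 20.3% overlap Ticrr or an antisense gene. Kif6 was at 0.416, 0.344 and 0.349 FPKM in ASTs, 0.610, 0.776 and 0.695 in A-iSCs, 2.85, 2.44 and 2.74 in P56-NPCs and 1.26, 0.999 and 1.23 in P0-NPCs, so that P56-NPCs were the highest and ASTs the lowest. Kif24, a regulator of cilium assembly, stayed under 1 FPKM in every sample, at 0.315 ± 0.0877 FPKM (SD, n = 3) in A-iSCs and 0.521 ± 0.158 in ASTs, and was not called between them without the filter.

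The 6 other kinesins were low apart from Kif2a. Kif2a, a microtubule depolymerase that prunes axon branches and also acts at spindle poles, was at 11.8, 9.86 and 10.7 FPKM in ASTs, 7.25, 7.04 and 7.73 in A-iSCs, 7.84, 6.77 and 7.43 in P56-NPCs and 11.7, 12.9 and 12.7 in P0-NPCs. It was lower in A-iSCs than in ASTs (log2 fold change -0.50, SE 0.11, adjusted p = 0.00683), a call lost with scaling by library size (-0.30, adjusted p = 0.0620), and A-iSCs overlapped with P56-NPCs. Of its exon bases, 19.2% overlap Dimt1. Kif26a and Kif26b, kinesins that lack motor activity and act in signalling during development, were highest in P0-NPCs. Kif26a was at 0.414, 0.235 and 0.451 FPKM in ASTs, 0.667, 0.474 and 0.760 in A-iSCs, 2.73, 2.84 and 2.19 in P56-NPCs and 5.14, 5.14 and 5.14 in P0-NPCs, and Kif26b was at 0.722, 0.695 and 0.758 FPKM in ASTs, 0.358, 0.312 and 0.513 in A-iSCs, 0.553, 0.844 and 0.611 in P56-NPCs and 4.48, 4.52 and 4.95 in P0-NPCs. Against P56-NPCs, P0-NPCs were higher by 0.78 for Kif26a and 1.76 for Kif26b on the log2 scale. Kif12 was listed at 0 in all AST and A-iSC samples and reached at most 0.147 FPKM in P56-NPCs, from 8 fragments. Kif28 reached at most 0.154 FPKM, from 9 fragments, in P56-NPCs and was listed at 0 in A-iSCs.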

How the data were processed

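RNA-seq of 12 mouse samples in 4 groups of 3 was examined. The authors made paired-end libraries with a NEBNext Ultra kit for Illumina sequencing. The deposited table gives 1 value per gene and sample without naming its unit, and the values were taken as FPKM because in each sample, value times gene length came out as whole multiples of 1 step (tolerance 0.05). The submitters' processing notes name Bowtie 0.12.2 and mm8, whereas 54985 of the 55240 identifiers also found in GENCODE M21 lay at that annotation's GRCm38 position. The counting tool and its use of strand are not given in the sources used here, so overlapping genes may share fragments. How much sequence a gene shares with others was computed from the GENCODE M21 annotation on GRCm38, as exon bases and as runs of 50 bases.

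Tests used limma 3.58.1 in R 4.3.3 (lmFit and eBayes with trend) on log2(FPKM + 1), each on the 2 groups compared, with Benjamini-Hochberg adjustment over genes with a mean of at least 1 FPKM in either group. Since the table holds FPKM, no count test was the main test, and DESeq2, which the authors used, was not run. Alternatives were upper-quartile and library size scaling, no filter, a pseudocount of 0.1, all 4 groups in 1 model, a replicate block, limma-voom on the recovered fragments and leaving out each sample. Kif5 shares without each sample, the distance of TTTGAA from the start site, the windows at the 5′ end of a gene and the kinesin sum without Kif5a were added after seeing the data. Scripts ran in Python 3.11.15 with numpy 2.4.6, pandas 2.3.3 and matplotlib 3.10.9, and were tested on simulated data.

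The members and lists were chosen with earlier results of these data known. Per-sample values are given for the 6 members of each role list with the highest mean, members called against most of their list in A-iSCs against ASTs, and the 5 with the largest fold change in each comparison. Of these, Kif24 is given by mean and SD, and Kif12 and Kif28 by their maxima. Kif11, Kif14, Kif15, Kif18a, Kif20b, Kif1b, Kif3a, Kif3b, Kif3c, Kif16b, Kif17 and the genes named from the other lists were singled out after their values were seen, as were the promoter stretches shown. Positions of the motor within the proteins were not computed.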

Additional observations from a re-analysis of the deposited data

How the results depend on the processing

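Over 150 fold changes of 26 kinesin genes, direction and call held for 150 with a pseudocount of 0.1, 149 with all 4 groups in the model, 148 with limma-voom, 148 with upper-quartile scaling, 144 without a filter and 134 with library size scaling. Among refits that left out 1 sample, 854 kept direction and call, 10 turned direction, 30 lost and 4 gained a call. Library size scaling raised the kinesins higher in A-iSCs than in P56-NPCs from 7 to 12. It turned the log2 fold change of Kif1a in A-iSCs against ASTs to 0.042, of Kifc3 and Kif13a in P56-NPCs against ASTs to -0.23 and -0.17, of Kif21a and Kif2a in A-iSCs against P56-NPCs to 0.46 and 0.49, of Kif13a in A-iSCs against P0-NPCs to -0.018 and of Kif27 in P0-NPCs against P56-NPCs to 0.043. Upper-quartile scaling turned Kifc3 in P56-NPCs against ASTs to -0.056 and Kif2a in A-iSCs against P56-NPCs to 0.021. The cause was not tested. Apart from Kif21a and Kif2a with library size scaling (adjusted p = 0.00774 and 0.00358), none of these turned values was called.

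Leaving out 1 sample turned the direction of 6 values near 0, none of which was called when turned. The ranges were -0.011 to 0.145 for Kifc3 in P56-NPCs against ASTs, -0.051 to 0.042 for Kif2a and -0.00167 to 0.225 for Kif4 in A-iSCs against P56-NPCs, -0.084 to 0.133 for Kif13a in A-iSCs against P0-NPCs and -0.00226 to 0.0714 for Kif21a in P0-NPCs against P56-NPCs. The other was Kif5b in A-iSCs against P0-NPCs, which became 0.07 and 0.20 without A-iSC replicates 1 and 2, and -0.41 (adjusted p = 0.00947) without A-iSC replicate 3. Kinesins called in A-iSCs against ASTs numbered 9 to 10 higher and 15 to 16 lower across these refits, and in A-iSCs against P0-NPCs 4 higher and 15 to 21 lower. Shares of Kif5 heavy chains from fragments in place of FPKM, which do not divide by gene length, were 22.4% for Kif5a in P0-NPCs, 75.3%, 8.92% and 16.0% for Kif5b in ASTs, P56-NPCs and P0-NPCs, and 23.4% and 61.6% for Kif5c in ASTs and P0-NPCs.

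Samples of the same replicate number shared only a number: between A-iSCs and ASTs their deviations correlated at -0.378, 0.335 and 0.427 for numbers 1 to 3, and not every sample correlated best with its own number. With the replicate as a block, 10 kinesins were higher and 16 lower in A-iSCs against ASTs, and 4 of the 133 calls among the 150 fold changes were lost, namely Kif7 in P56-NPCs against ASTs, Kif2c in A-iSCs against P56-NPCs, and Kif20a and Kif6 in A-iSCs against P0-NPCs. Motor positions in the proteins were not run. Genes near the floor of 3 fragments, such as Kif12 and Kif28 in ASTs, allow no statement on change at this depth.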

Other observations

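Dynein with its activator dynactin carries cargo in the direction opposite to most kinesins, and 8 of its genes were read from a list. In A-iSCs against ASTs, 0 of 7 tested genes were higher and 3 (42.9%) were lower by limma, against 25.2% and 29.6% of all genes tested, and the lower ones were Dync1li2 (-0.93), Dync1li1 (-0.83) and Dync1i2 (-0.36) on the log2(FPKM + 1) scale. Dync1li2, a light intermediate chain, was at 45.3, 31.6 and 43.2 FPKM in ASTs, 15.99, 19.4 and 26.8 in A-iSCs, 101, 107 and 107 in P56-NPCs and 26.2, 27.1 and 26.2 in P0-NPCs, so that P56-NPCs stood highest. Dync1i1, the intermediate chain known from neurons, was at 0.267, 0.110 and 0.211 FPKM in ASTs, 0.153, 0.283 and 0.0940 in A-iSCs, 3.23, 4.17 and 3.84 in P56-NPCs and 8.62, 11.8 and 10.7 in P0-NPCs. It was higher than ASTs in P56-NPCs (1.99) and P0-NPCs (3.24). In P56-NPCs against ASTs, 3 of 8 genes were higher and 5 were lower (37.5% and 62.5%), against 39.1% and 39.8% of all genes tested.

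Microglia markers summed to 383 to 444 FPKM in A-iSCs, 418 to 439 in P56-NPCs, 56.3 to 73.02 in ASTs and 44.7 to 56.2 in P0-NPCs, so that A-iSCs and P56-NPCs overlapped. Endothelial markers were highest in P0-NPCs, at 66.8 to 67.4 FPKM against 2.76 to 3.59 in ASTs, where Cldn5 was listed at 0.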
